A study of Mus musculus with 30 samples.

Results

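V(D)J joining of the immunoglobulin heavy-chain locus (Igh) was compared between bone marrow pro-B cells with a mutated CBE2 element and wild-type pro-B cells. The libraries were chosen by their titles: 3 libraries of CBE2mut cells and 3 of WT cells, 6 of the 30 libraries in the series. Both groups held primary pro-B cells sorted as B220+, IgM- and CD43+ from mice of the 129SV background (the label of the sort writes 129SVE), with the genotype given as WT or as CBE2-/- (CBE2mut), and the labels name no other allele and no age. The labels do not say whether the libraries of a group came from separate mice, so the p-values measure only spread between libraries. Exact permutation p-values rest on these 6 libraries. The limma p-values rest on a spread shared over all 18 bone marrow libraries of 6 genotypes: WT, CBE2mut, CBE2inv, CBE1mut, CBE1inv and CBE12mut. The CBE2mut libraries came from another sequencing run than the WT libraries. In all comparisons of these groups below, the effects of run and of genotype cannot be told apart. Values of 3 CBE2inv libraries, a genotype with CBE2 inverted and from the same run as CBE2mut, are given beside them in places.

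Heavy-chain genes are assembled by the RAG endonuclease in 2 ordered steps: a D segment is joined to a JH segment, and a V segment is then joined to the DJH unit. RAG cuts beside recombination signal sequences, each made of a conserved heptamer and nonamer around a spacer, and it reaches segments that cohesin-driven loop extrusion brings past the recombination centre at the JH segments. Between the D and the V segments lies the intergenic control region 1 (IGCR1), which carries a pair of binding elements for the factor CTCF, CBE1 and CBE2, and is known as an insulator that keeps the V segments nearest to D from dominating joining. The assay, HTGTS-V(D)J-seq, amplifies genomic DNA outward from a primer at JH4 and reads what is joined to it, so that each read is 1 junction: a read that ends in a D segment is a D join (DJH) and a read that ends in a V segment is a V join (VDJH). Joins that delete the DNA between both ends have 1 fixed orientation in the read, and inversional joins have the other.

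The V segments nearest to D are shown first because most of the gain of joins lay in them. The line of each V segment gives its last 45 bases, where D is joined, with the codon of the conserved cysteine that opens the CDR3 in capitals, and the line of JH4 gives the bait segment with the codon of the conserved tryptophan that closes it in capitals. All are on chromosome 12, minus strand, of the study's alignment target, mm9 with an Igh sequence of strain 129 added, whose positions are not comparable with those of mm9.
Ighv5-1: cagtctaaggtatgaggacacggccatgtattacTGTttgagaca
Ighv5-2: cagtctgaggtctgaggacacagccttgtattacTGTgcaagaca
Ighv2-2: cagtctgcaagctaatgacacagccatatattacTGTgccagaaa
Ighv5-4: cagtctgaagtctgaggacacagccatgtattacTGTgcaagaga
JH4: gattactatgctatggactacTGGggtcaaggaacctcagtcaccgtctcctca
Ighv5-1 is a pseudogene, and Ighv5-2, long known as VH81X, is the nearest V segment that is not annotated as one. These stretches end at chr12:114830805-114830849, chr12:114836377-114836421, chr12:114846142-114846186 and chr12:114855361-114855405 for the V segments, and JH4 lies at chr12:114671075-114671128.

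The D segments that the results turn on follow, with the coding part in capitals and the heptamer of each flanking recombination signal in lower case. The segments without a full name are given by family and position.
Ighd4-1: cacagtgCTAACTGGGACcacggtg
Ighd3 at 114687612: cacagtgAGACAGCTCGGGCTACcactgta
Ighd2 at 114695747: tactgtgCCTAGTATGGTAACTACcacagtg
Ighd2 at 114700407 and at 114710077: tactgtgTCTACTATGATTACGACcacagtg
Ighd2 at 114705399: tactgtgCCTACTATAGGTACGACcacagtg
Ighd2 at 114714725: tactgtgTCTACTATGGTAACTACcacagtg
Ighd1-1: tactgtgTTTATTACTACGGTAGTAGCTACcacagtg
Ighd4-1 (DQ52), 1.96 kb from JH4, has the shortest of these coding parts with 11 bases, and Ighd1-1 (DFL16.1), 63.4 kb from JH4 and the last D segment before the interval with IGCR1, has the longest with 23. Both lie on the minus strand, with their coding parts at chr12:114673089-114673099 and chr12:114734544-114734566. The downstream heptamer of the Ighd2 and Ighd1 segments was cacagtg in each, while those of Ighd4-1 and of the Ighd3 segment differed from it.

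The CBE2mut libraries were shallower than the WT libraries and differed from them in other properties of the reads. They held 31576, 11105 and 41433 junctions against 79560, 57970 and 89905 in WT, of which 93.7%, 91.3% and 89.6% were V or D joins against 97%, 96.5% and 96.4%. Distinct read sequences made up 61.5%, 78.1% and 52.9% of CBE2mut reads and 76.8% to 81.5% of WT reads. The median length from the bait start to the prey end was 251 to 268 bases in CBE2mut and 311 to 337 bases in WT, and the groups did not overlap. The part of depth, repeated reads and read length in the results was not tested, other than by counting repeats once. Libraries shared at most 2 distinct V joins with each other, so none was a second copy of another.

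In CBE2mut pro-B cells a larger part of joining had reached V segments. V joins made up 55.1%, 42.4% and 40.4% of V plus D joins in the CBE2mut libraries and 36.9%, 35.6% and 30.5% in the WT libraries. Every CBE2mut library lay above every WT library, and replicate 1 of CBE2mut lay far above the other two. The group means were 46.0% ± 7.98 (SD, n = 3) and 34.3% ± 3.39 (SD, n = 3), a difference of 11.7 percentage points (exact two-sided permutation p = 0.1, the smallest that 3 against 3 unpaired libraries allow). With the libraries paired by replicate number the exact sign-flip p was 0.25, the smallest that 3 pairs allow. The difference was 7.11 points without replicate 1 of CBE2mut. In CBE2inv, from the same run as CBE2mut, the V share was 40.3%, 50.1% and 43.8%, or 44.7% ± 4.93 (SD, n = 3). The CBE2inv libraries overlapped with CBE2mut and lay above every WT library, so the higher V share was not particular to CBE2mut.

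The gain lay in the V segments at the D end of the V region. The 10 V segments nearest to D that carry joins, all of the Ighv5 or Ighv2 family, took 43.7%, 56.8% and 59.4% of V joins in CBE2mut and 24.8%, 30% and 28.9% in WT. The lowest CBE2mut library was still above the highest WT library, at 53.3% ± 8.40 against 27.9% ± 2.74 (SD, n = 3 each; difference 25.4 points, exact permutation p = 0.1). With Ighv5-2 left out, the other 9 still took 39.3% ± 7.91 against 19.2% ± 2.28 of the remaining V joins (20.1 points, exact permutation p = 0.1). With all 10 left out, V joins made up 40.9%, 24.1% and 21.6% of the remaining V plus D joins in CBE2mut and 30.5%, 27.9% and 23.8% in WT. Here the groups overlapped, with CBE2mut replicate 1 above the range of WT, replicate 2 within it and replicate 3 below it (difference 1.48 points, exact permutation p = 0.9).

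Ighv5-2 took the largest share of V joins in every library, 19.3%, 25.2% and 25.9% of them in CBE2mut against 9.85%, 11.4% and 11.3% in WT. The 95% Wilson intervals, which cover counting error of reads only, ran from 18.7% to 26.6% over the CBE2mut libraries and from 9.51% to 11.9% over WT. No CBE2mut interval met a WT interval. They take each read as an independent count, although reads repeat, so they are too narrow even for counting error. The libraries held 10224, 5720 and 8286 distinct joins in CBE2mut and 23316, 19985 and 23673 in WT. The share was 2.13 times as high in CBE2mut (log2 difference 1.09, SE 0.13, limma adjusted p = 5.56e-13). Per 100000 junctions of the library, Ighv5-2 held 9708 ± 304 in CBE2mut and 3588 ± 309 in WT (SD, n = 3 each).

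The next V segments followed the same direction. Ighv2-2 took 10.4%, 13.3% and 13.6% of V joins in CBE2mut against 5.40%, 6.60% and 6.26% in WT (log2 1.01, SE 0.14, limma adjusted p = 6.12e-10). Ighv5-4 took 5.24%, 6.90% and 7.03% against 2.93%, 4.04% and 3.54% (log2 0.85, SE 0.15, limma adjusted p = 2.40e-06). The pseudogene Ighv5-1, the V segment closest to D of all, took 1.12%, 1.05% and 1.48% against 0.425%, 0.602% and 0.496% (log2 1.31, SE 0.26, limma adjusted p = 1.91e-05). In each of the 4 nearest segments the libraries of both groups did not overlap, and CBE2mut replicate 1 had the lowest or the middle share of its group. Their log2 differences ran from 0.72 to 1.98 over 13 settings of the test, with no adjusted p above 0.0029.

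Of the next 6 segments, 4 passed upward with less support. Ighv2-3 took 3.26%, 4.02% and 4.01% of V joins against 2.33%, 2.69% and 2.81% (log2 0.50, limma adjusted p = 0.0117), and Ighv5-6 took 1.99%, 3.18% and 3.28% against 1.92%, 1.95% and 1.91% (log2 0.45, limma adjusted p = 0.0420). In Ighv5-6 replicate 1 of CBE2mut lay just above WT and the other CBE2mut libraries well above it. Ighv5-9 held 93, 16 and 72 junctions in CBE2mut and 49, 56 and 65 in WT, a share 2.22 times as high (log2 1.15, limma adjusted p = 0.00652). The shares of Ighv5-12 overlapped, at 1.64%, 2.42% and 3.10% against 1.20%, 1.96% and 1.62% (log2 0.56, limma adjusted p = 0.0182). These 4 calls relative to V joins were lost under some settings: without WT replicate 1 the adjusted p was 0.0713 for Ighv2-3, 0.0744 for Ighv5-6, 0.0575 for Ighv5-9 and 0.150 for Ighv5-12, and without CBE2mut replicate 3 it was 0.102 for Ighv2-3, 0.435 for Ighv5-6 and 0.431 for Ighv5-12. The call on Ighv5-6 was also lost without WT replicate 2 (0.0582), WT replicate 3 (0.0648) or CBE2mut replicate 2 (0.0873).

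Not every V segment near D moved this way. Ighv2-4, which lies between Ighv5-6 and Ighv5-9, held 0.116%, 0.232% and 0.206% of V joins in CBE2mut and 0.165%, 0.176% and 0.276% in WT (log2 -0.27, limma adjusted p = 0.582). Ighv2-6, the tenth segment, held 0.135%, 0.139% and 0.353% against 0.418%, 0.281% and 0.5%, and passed the test downward (log2 -0.95, limma adjusted p = 0.0480) although its libraries overlapped. That call was lost without CBE2mut replicate 1 (log2 -0.50, adjusted p = 0.348), without CBE2mut replicate 2 (0.0925), WT replicate 1 (0.0849) or WT replicate 3 (0.128), with median-of-ratios scaling (log2 -0.38, adjusted p = 0.648) and with each distinct read counted once (log2 -0.63, adjusted p = 0.140). Both segments were used little in either genotype, with at most 132 junctions in a library.

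**Figure D1:**
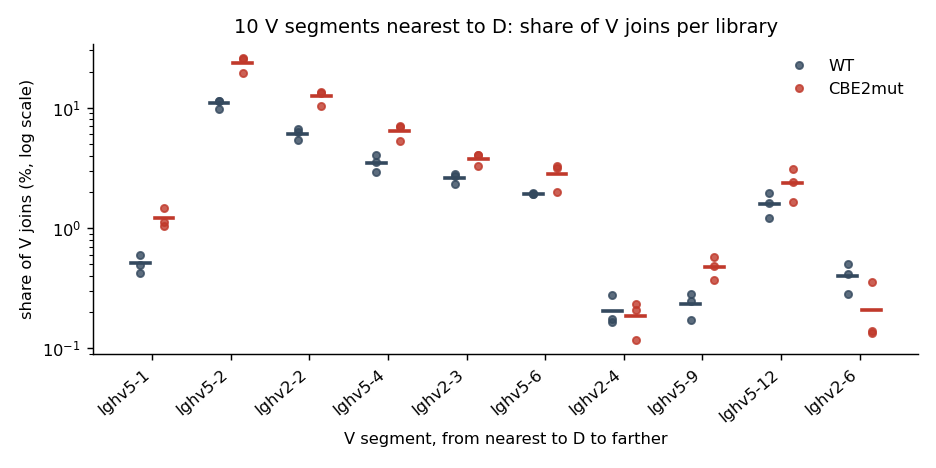
Share of V joins (percent, log scale) at the 10 V segments nearest to D, ordered from D outward, with 1 point per library and a bar at the group mean. The CBE2mut points lie above all WT points in 7 of the 10 segments, where 49.6% of all 139 V segments have no overlap in either direction, from Ighv5-1 to Ighv5-6 and in Ighv5-9, and overlap with them in Ighv2-4, Ighv5-12 and Ighv2-6.

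Of the 139 V segments tested relative to V joins, 8 were higher (5.76%) and 47 were lower (33.8%) in CBE2mut at an adjusted p under 0.05, and all 8 higher ones were among the 10 nearest to D. Relative to all junctions, 163 V and D segments were tested, of which 9 were higher (5.52%) and 11 lower (6.75%), and 8 of the 9 were again these V segments. None of the 129 tested V segments beyond the 10 nearest was higher by either measure, with limma voom or limma trend (at an unadjusted p under 0.05, 2 were higher relative to all junctions and 0 relative to V joins). Their shares of V joins had a median log2 difference of -0.76, with 46 lower, and their levels relative to all junctions had a median of -0.42, with 6 lower. The direction for these segments depended on the scaling: median-of-ratios scaling moved the median of all V segments from -0.73 to -0.02 relative to V joins, where it called 10 higher, 2 of them beyond the 10 nearest, and 5 lower. This scaling takes the median ratio over segments as the scale of a library. A median near 0 therefore follows from its construction and is not a result.

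By V family, the higher calls fell in the families of the 10 nearest segments and only among those 10. Of the 19 tested Ighv5 segments 6 were higher and 3 lower relative to V joins, but of the 13 that lie beyond the 10 nearest 0 were higher and 3 lower (23.1%), with a median log2 difference of -0.50. Of the 17 Ighv2 segments 2 were higher and 5 lower, and beyond the 10 nearest 0 and 4 of 13 (30.8%), with a median of -0.78. Among the 61 segments of Ighv1, the large family that fills the distant part of the region, 0 were higher and 20 lower (32.8%), with a median of -0.91. Ighv8 had 0 higher and 2 lower of 8 (25%), and the other families together 0 higher and 17 lower of 34 (50%). Over all 139 V segments 33.8% were lower, with a median of -0.73, and over the 129 beyond the 10 nearest 35.7%, so the Ighv1 share lay near that of all V segments and nothing particular to a family was read from these counts. Among the named V segments annotated as pseudogenes 1 of 6 was higher, which was Ighv5-1, and 2 were lower (33.3%).

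**Figure D2:**
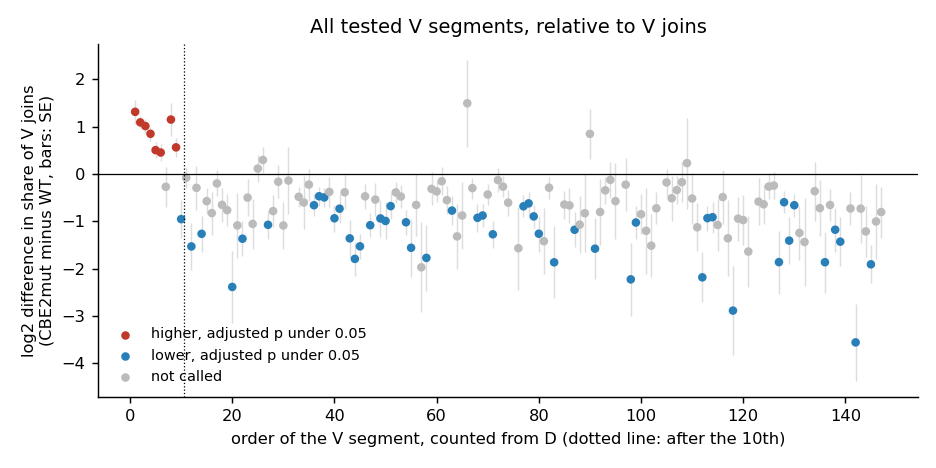
Log2 difference in the share of V joins (CBE2mut minus WT, bars give the SE) of each tested V segment in its order from D, with calls of limma at an adjusted p under 0.05 in colour. The 8 higher calls lie to the left of the dotted line after the tenth segment. The 129 segments to its right have a median of -0.76, which median-of-ratios scaling brings close to 0 by its construction.

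Beyond the 10 nearest, the spread of the remaining V joins along the locus did not differ by more than the libraries within a group. When the V region was divided into 3 parts of equal length, the part nearest to D held 33.9%, 43.0% and 40.3% of these remaining joins in CBE2mut and 35.6%, 38.5% and 41.0% in WT (exact permutation p = 0.8). The middle part held 46.0% ± 2.01 against 44.3% ± 2.52 (SD, n = 3 each; exact permutation p = 0.4). The farthest part held 18.5%, 13.3% and 13.1% against 17.4%, 17.8% and 16.9% (exact permutation p = 0.4). In the farthest part CBE2mut replicate 1 lay above WT and the other CBE2mut libraries below it.

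The named segments with the largest falls lay scattered through the V region. They were chosen as the segments beyond the 10 nearest that were called lower relative to all junctions and whose libraries did not overlap, which left 5 V segments and no riser; 39 of the 163 segments did not overlap (23.9%). The Ighv3 segment at 115608445 held 177, 12 and 89 junctions in CBE2mut and 528, 433 and 521 in WT (log2 -1.24 per library size, limma adjusted p = 0.00453). The Ighv4 segment at 115588829 held 53, 14 and 17 against 208, 153 and 197 (log2 -1.52, limma adjusted p = 0.00836), and Ighv10-1 held 78, 25 and 53 against 332, 176 and 295 (log2 -0.93, limma adjusted p = 0.0382). Ighv1-53 held 18, 2 and 8 against 82, 62 and 120, and Ighv1-81 held 10, 0 and 0 against 56, 22 and 48. These calls did not hold in all settings. With only the 6 libraries in the fit none of the 5 passed (adjusted p from 0.0700 to 0.211). Without CBE2mut replicate 3 none of the 5 calls remained, with adjusted p-values of 0.494, 0.111, 0.507, 0.233 and 0.277 for Ighv4, Ighv3, Ighv10-1, Ighv1-53 and Ighv1-81 at log2 differences of -0.66, -0.99, -0.53, -1.40 and -1.81. Ighv10-1 also lost its call without WT replicate 1 (adjusted p = 0.161) or CBE2mut replicate 2 (0.0503). With median-of-ratios scaling the log2 differences were -1.06 for Ighv4 (adjusted p = 0.0783), -0.83 for Ighv3 (0.0633), -0.56 for Ighv10-1 (0.323) and -1.46 for Ighv1-53 (0.0633), and Ighv1-81 alone still passed.

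V use was concentrated on fewer segments in CBE2mut, which the effective number of V segments (the inverse of the summed squared shares) measures. It was 17.2, 10.8 and 10.3 in CBE2mut and 43.7, 35.7 and 37.1 in WT. It was among 11 of 24 junction features whose libraries did not overlap between the groups (45.8%). Each of these 11 has an exact permutation p of 0.1, which becomes 0.218 after Benjamini-Hochberg adjustment over the 24 features. The effective number of D segments went the other way, at 11.5, 11.1 and 11.2 against 9.56, 9 and 9.13. In CBE2inv, from the same run as CBE2mut, it was 11.4, 11.6 and 11.6, also above every WT library. The effective number of V segments in CBE2inv was 20.8, 32.8 and 34.9.

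D joins, the products of the first step, shifted away from the D segment at the far end of the D group. Ighd1-1 made up 12.4%, 13.5% and 12.6% of D joins in CBE2mut and 20.9%, 22.9% and 22.6% in WT. Both groups were tight and far apart, at 12.8% ± 0.590 and 22.1% ± 1.10 (SD, n = 3 each; difference -9.26 points, exact permutation p = 0.1). The log2 difference within D joins was -0.81 (SE 0.07, limma adjusted p = 1.83e-13), and it ran from -0.97 to -0.74 over 13 settings. Relative to all junctions 1 of the 24 D segments was higher and 5 were lower, and Ighd1-1 fell by 1.18 on the log2 scale (limma adjusted p = 5.11e-12), with a range of -1.27 to -0.81 over 16 settings. The other lower calls were Ighd2-3 (log2 -0.49), Ighd2 at 114705399 (-0.38), Ighd2 at 114723458 (-0.43) and Ighd6-1 (-0.91), with limma adjusted p from 0.00345 to 0.0395. The call on Ighd2-3 held with any library left out. Ighd2 at 114705399 was lost without CBE2mut replicate 1 (log2 -0.21, adjusted p = 0.248), CBE2mut replicate 2 (0.0531), WT replicate 1 (0.0568) or WT replicate 3 (0.116). Ighd2 at 114723458 was lost when any library but WT replicate 1 was left out (adjusted p from 0.0588 to 0.132), and Ighd6-1 when any but CBE2mut replicate 1 was (0.0520 to 0.272). With median-of-ratios scaling none of these 4 passed (log2 -0.12, -0.0033, -0.07 and -0.59, adjusted p from 0.301 to 0.992). Within D joins Ighd1-1 was the only lower D segment of 24 tested (4.17%).

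Of the D segments tested, 3 took a larger part of D joins (12.5%). The Ighd3 segment at 114687612, the second D segment from JH, took 4.29%, 4.38% and 3.80% in CBE2mut against 2.23%, 1.86% and 2.20% in WT (log2 0.90, SE 0.13, limma adjusted p = 1.57e-07). Ighd4-1, the first D segment, took 8.35%, 6.42% and 7.65% against 5.83%, 5.37% and 5.68% (log2 0.46, SE 0.09, limma adjusted p = 4.36e-05). The Ighd2 segment at 114714725 took 11.3%, 11.6% and 10.4% against 8.69%, 9.13% and 8.71% (log2 0.29, SE 0.07, limma adjusted p = 0.00182). All 3 had no overlap between groups, as had 6 of the 24 tested D segments (25.0%). In CBE2inv, from the same run as CBE2mut, the means were 5.32% for Ighd3, 8.54% for Ighd4-1 and 10.8% for Ighd2 at 114714725. These were higher than in WT as well (limma adjusted p = 2.87e-12, 3.54e-07 and 0.00109), so the gains were not particular to CBE2mut.

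Shares of D joins sum to a whole, so the scaling bears on these gains. With median-of-ratios scaling Ighd3 at 114687612 kept its rise (log2 0.76), while Ighd4-1 (log2 0.28, adjusted p = 0.0691) and Ighd2 at 114714725 (log2 0.14, adjusted p = 0.363) no longer passed. Relative to all junctions the Ighd3 segment held 2046 ± 252 per 100000 in CBE2mut against 1333 ± 164 in WT (SD, n = 3 each; log2 0.57, limma adjusted p = 0.0380), which did not hold when WT replicate 1 (adjusted p = 0.0700), WT replicate 2 (0.136), CBE2mut replicate 2 (0.105) or CBE2mut replicate 3 (0.146) was left out, or when each distinct read was counted once (0.221). Ighd4-1 held 3657 ± 376 against 3570 ± 234 (log2 0.05, limma adjusted p = 0.818).

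The other D segments did not pass the test within D joins. With a library left out, Ighd2 at 114695747 passed upward without WT replicate 1 (adjusted p = 0.00729) or CBE2mut replicate 1 (0.00231), Ighd2 at 114690286 passed upward without WT replicate 1 (0.0478), and Ighd6-2 passed downward without WT replicate 3 (0.0213). Ighd2 at 114705399 took 9.48%, 10.4% and 10.2% against 10%, 9.50% and 10% (log2 0.01, limma adjusted p = 0.931). Ighd2-3, the neighbour of Ighd1-1 among the Ighd2 segments, took 9.49%, 9.59% and 9.16% against 9.47%, 10.5% and 10.2% (log2 -0.11, limma adjusted p = 0.289). Ighd2 at 114710077, whose libraries did not overlap, took 7.59%, 7.19% and 7.63% against 6.91%, 6.84% and 6.26% (log2 0.18, limma adjusted p = 0.132). Ighd1 at 114719358, the other member of the Ighd1 family, took 7.69% ± 0.484 against 6.80% ± 0.664 (SD, n = 3 each; log2 0.14, limma adjusted p = 0.272). Of the 11 tested segments of the Ighd5 and Ighd6 families 0 were called within D joins by limma voom or limma trend (1 at an unadjusted p under 0.05 by voom, 0 by trend), and each took at most 0.597% of D joins.

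The D segment at 114784064, an Ighd3 family member that lies alone 113 kb from JH4 in the interval between D and V, was hardly used in either genotype. It held 6, 1 and 0 junctions in CBE2mut and 9, 0 and 0 in WT. The libraries with 0 allow up to 7.24 junctions per 100000 in CBE2mut replicate 3, 5.18 in WT replicate 2 and 3.34 in WT replicate 3.

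The D segment kept inside a V join gives a second view of D use, in molecules that have gone through both steps. A single D sequence could be recognised, by a match of 8 or more bases, in 52.8%, 52.1% and 54.6% of V joins in CBE2mut and in 58.0%, 58.8% and 58.8% in WT, with no overlap. Of these joins, Ighd1-1 made up 12%, 10.1% and 11.8% in CBE2mut and 23.4%, 22.8% and 22.9% in WT, or 11.3% ± 1.03 against 23.0% ± 0.302 (SD, n = 3 each; log2 -0.99, SE 0.07, limma adjusted p = 2.49e-13). The difference ran from -1.12 to -0.95 over 14 settings. As in D joins, it was the only lower D of those tested here (1 of 12, 8.33%).

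Of the D sequences that gained inside V joins, Ighd4-1 had also gained in D joins and the others had not passed there. In D joins the segments with a shared sequence were tested separately. The sequence shared by the Ighd2 segments at 114700407 and 114710077 took 21.6%, 21.7% and 21.6% in CBE2mut against 16.8%, 15.6% and 16.1% in WT (log2 0.42, SE 0.06, limma adjusted p = 6.66e-07). The Ighd2 segment at 114695747 took 10.2%, 11% and 11.2% against 8.26%, 8.12% and 7.23% (log2 0.45, SE 0.09, limma adjusted p = 1.46e-04). Ighd4-1 took 3.86%, 3.21% and 3.89% against 3.16%, 2.66% and 2.26% (log2 0.51, SE 0.19, limma adjusted p = 0.0354), the last of 3 higher calls among 12 sequences (25.0%). Its call was lost without WT replicate 2 (adjusted p = 0.0902), without WT replicate 3 (0.161), without CBE2mut replicate 1 (0.148) and without CBE2mut replicate 3 (0.115). It was also lost with each distinct read counted once (0.0763), with median-of-ratios scaling (0.101) and with a match of 10 or more bases (0.0542). Ighd3 at 114687612 overlapped between groups here, at 2.07%, 1.21% and 2.54% against 1.34%, 1.06% and 2.06% (log2 0.54, limma adjusted p = 0.0870, and 0.0432 with the replicate number as a block, as for Ighd2 at 114690286). It also passed without WT replicate 3 (0.0115) or CBE2mut replicate 2 (0.0452), and Ighd2 at 114690286 without CBE2mut replicate 3 (0.0268). Ighd2 at 114714725 was read in 1.55% ± 0.138 of these V joins in CBE2mut and 1.40% ± 0.132 in WT (SD, n = 3 each). It made up 11.1% ± 0.625 and 8.85% ± 0.25 of D joins, but shares inside V joins and in D joins are not comparable for it. A D was counted inside a V join only where its longest match fitted 1 D sequence. The coding part of this segment differs in 1 of 17 bases from that of Ighd2 at 114690286. So does that of Ighd2 at 114695747. The sequence shared by 114700407 and 114710077 differs in 1 base from that of Ighd2 at 114723458. The limit therefore holds for these sequences too.

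The lower use of Ighd1-1 was seen in each of 4 classes of V join. In joins of the 10 nearest V segments it made up 6.87%, 6.55% and 8.19% in CBE2mut against 15.5%, 13.3% and 13.8% in WT, and in joins of the other V segments 16.1%, 15.1% and 17.1% against 26.0%, 26.7% and 26.5% (exact permutation p = 0.1 each). In productive joins it made up 14.2% ± 0.854 against 25.9% ± 1.16 and in the others 9.35% ± 1.91 against 21.2% ± 0.308 (SD, n = 3 each). In these 4 classes no CBE2mut library reached a WT library.

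The 10 nearest V segments and the rest were joined to the same main D sequences, some of them in different proportions, in both genotypes. Ighd4-1 was at a mean of 3.81% and 3.48% of their joins in CBE2mut. Ighd2 at 114705399 made up 28.8%, 28.6% and 28.0% of joins of the 10 nearest V in CBE2mut and 27.7%, 35.0% and 31.8% in WT, against 12.8% to 16.9% and 15.8% to 17.7% of joins of the other V. Ighd1-1 went the opposite way, as its values above show. No test was run on this difference between V classes. Between genotypes Ighd2 at 114705399 differed little, at 22.1% ± 1.49 against 20.8% ± 1.70 over all V (SD, n = 3 each; log2 0.05, limma adjusted p = 0.577).

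**Figure D3:**
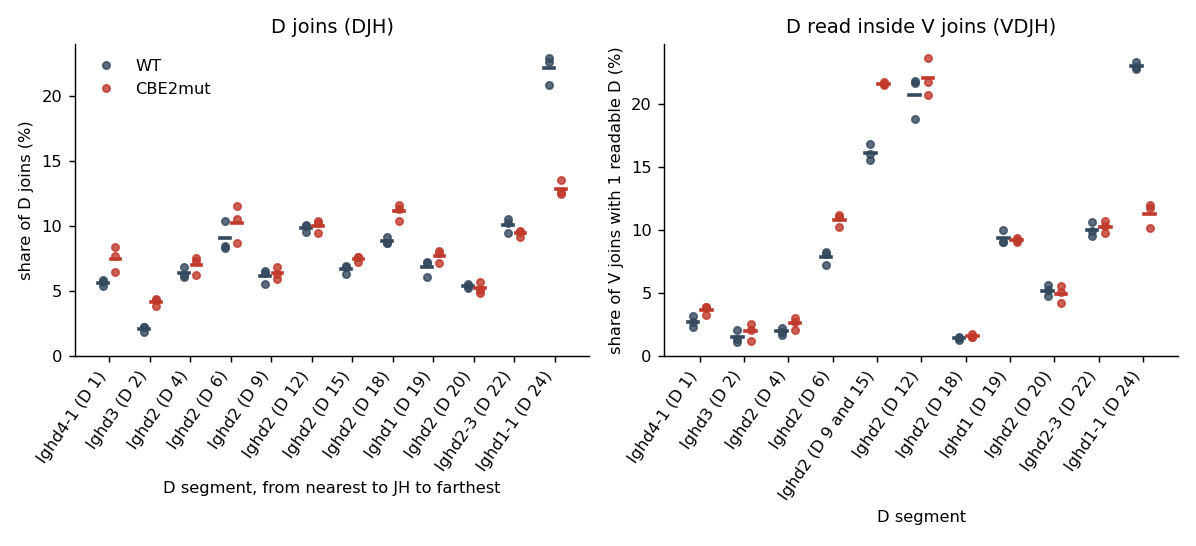
Share of each D segment (percent) among D joins (left) and among V joins with 1 readable D (right), with 1 point per library, a bar at the group mean and the order of the D segment from JH in brackets. Ighd1-1 stands at 12.8% against 22.1% of D joins and at 11.3% against 23.0% of V joins with a readable D, with no overlap between CBE2mut and WT.

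The reading frame bears on whether a V join can encode a heavy chain. Cells with a productive join pass on to the next stage while a cell with 2 nonproductive alleles does not. Here joins in frame without a stop codon in the CDR3 were counted as productive, and the rest of the V segment was not read. Joins of V segments annotated as pseudogenes were included, at a mean of 5.02% of V joins in CBE2mut and 6.05% in WT. Over all V segments 49.5%, 50.4% and 44.8% of V joins with a read CDR3 were in frame in CBE2mut and 52%, 49.2% and 49.8% in WT, with overlap (exact permutation p = 0.5). In the V segments beyond the 10 nearest, 63.3%, 65.8% and 61.8% were in frame in CBE2mut and 57.6%, 56% and 55.8% in WT. There every CBE2mut library lay above every WT library, by 7.16 points in the mean (exact permutation p = 0.1), and the difference lay between 6.09 and 8.08 points with any 1 library left out.

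In the 10 nearest V segments the in-frame share was lower than elsewhere, and the genotypes overlapped. It was 30.8%, 38.4% and 33.0% in CBE2mut and 34.9%, 33.2% and 34.7% in WT (exact permutation p = 0.9). Productive joins made up 25.3% ± 4.77 against 24.3% ± 1.55 there, and 57.3% ± 2.66 against 49.3% ± 1.42 in the other V segments (SD, n = 3 each; difference 7.97 points in the latter, exact permutation p = 0.1). Joins of Ighv5-2, whose product is known to pair poorly with surrogate light chain, were productive in 15.6%, 20.4% and 15.2% in CBE2mut and in 19.0%, 16.2% and 18.8% in WT. Within this segment the groups overlapped. In CBE2inv, the genotype with an inverted CBE2 from the same run as CBE2mut, the in-frame share of the V segments beyond the 10 nearest was 57.7%, 67.6% and 66.9%.

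**Figure D4:**
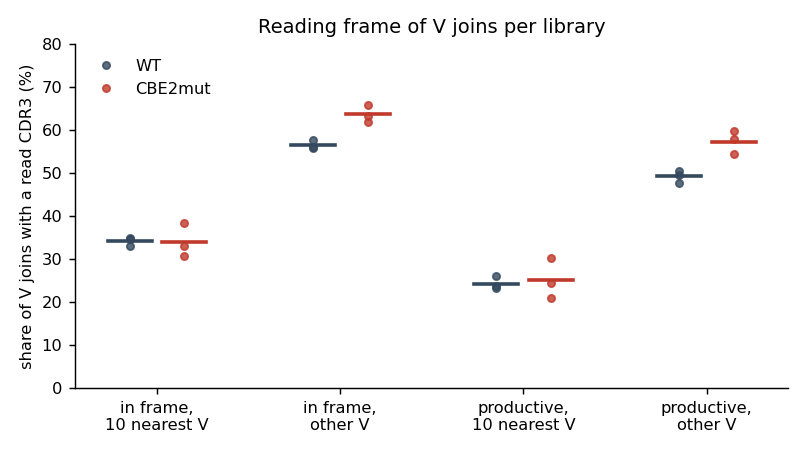
Share of V joins with a read CDR3 (percent) that were in frame or productive, for the 10 V segments nearest to D and for the other V segments, with 1 point per library and a bar at the group mean. For the other V segments the CBE2mut libraries lie at 61.8% to 65.8% in frame, above the WT libraries at 55.8% to 57.6%, while for the 10 nearest the groups overlap.

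The productive share of V joins was also read by the D sequence they held, for 9 D sequences. Joins that held Ighd2 at 114695747 were productive in 16%, 29.8% and 15.8% in CBE2mut and in 17.0%, 18.4% and 20.4% in WT, the lowest of the 9 D sequences in each WT library and in CBE2mut replicates 1 and 3. In CBE2mut replicate 2 Ighd2 at 114705399 was lowest, at 25.3%. Joins with Ighd4-1 were productive in 55.6%, 40.3% and 20.7% in CBE2mut, a wide spread, and in 55.5%, 56.9% and 52% in WT. No test was run on the differences between D sequences. Joins with Ighd1-1 were productive in 50.1%, 56.3% and 39.7% against 49.6%, 43.3% and 43.1%. Joins with Ighd2-3 were productive in 48.2%, 45.7% and 46.7% against 42.8%, 41.4% and 37.9%, the only D sequence of the 9 without overlap. The CDR3 of productive joins had a mean length of 43.9, 44.3 and 44 bases in CBE2mut and 44.5, 44.4 and 44.6 bases in WT, a difference of -0.417 bases (exact permutation p = 0.1). The median number of bases between the V end and JH4 was 17 in all 6 libraries.

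At the ends of D joins most measures overlapped between the genotypes. Bases were inserted at 89.7%, 88.4% and 88.5% of D joins in CBE2mut and at 89.1%, 87.8% and 88.4% in WT, with a mean of 3.80 ± 0.105 and 3.75 ± 0.0458 bases (SD, n = 3 each; exact permutation p = 0.6). Overlapping ends, where bases could belong to either segment, were found at 5.25%, 5.71% and 5.76% against 5.86%, 6.37% and 6.27%, without overlap of the groups, but with each distinct junction and read end counted once the difference was -0.516 points (exact permutation p = 0.2). Inversional joins made up 0.143% ± 0.0879 against 0.123% ± 0.0158 of D joins and 0.511% ± 0.152 against 0.503% ± 0.0778 of V joins (SD, n = 3 each), with overlap in both.

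JH4 was joined to another JH segment more often in CBE2mut than in WT libraries, and the CBE2inv libraries of the same run were high as well. The JH1 to JH3 zone, 1 of 13 zones of the target tested together, held 5054, 7627 and 9587 junctions per 100000 in CBE2mut against 1628, 2037 and 2053 in WT (log2 1.92, SE 0.33, limma adjusted p = 1.98e-04). It was 1 of 3 zones that were higher (23.1%), with the nearest part of the V region (log2 0.69, adjusted p = 1.94e-05) and junctions elsewhere on chromosome 12, which were 8, 1 and 3 against 1, 0 and 1 (not called without WT replicate 2, adjusted p = 0.0553). The 1 lower zone was that of Ighd1-1 (7.69%; log2 -1.15, adjusted p = 3.59e-05). CBE2mut replicate 3, which had the smallest part of distinct reads, held the most JH junctions of the 6 libraries. In CBE2inv, with CBE2 inverted, the zone held 9466 ± 6060 per 100000 (SD, n = 3).

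Nearly all of these JH joins ran opposite to the orientation of deletional joins, and in them a D segment can still lie between both JH segments. JH3 held 834, 484 and 2801 such junctions in CBE2mut and 595, 611 and 900 in WT, JH2 held 509, 281 and 867 against 508, 465 and 661, and JH1 held 137, 57 and 192 against 141, 100 and 216. With each distinct join counted once there were 281, 205 and 253 in CBE2mut and 370, 385 and 458 in WT. Per 100 distinct D joins these were 7.56, 7.25 and 6.23 against 3.28, 3.70 and 3.53, without overlap (exact permutation p = 0.1), a smaller gap than that of the reads, at 11.2, 14.1 and 17.5 against 2.55, 3.26 and 2.95 per 100 D joins. The CBE2inv libraries held 5.86, 10.3 and 6.85 distinct joins per 100 distinct D joins and 9.14, 39.0 and 11.2 reads per 100 D joins. They overlapped with CBE2mut and lay above every WT library in both measures.

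Most of these opposite-orientation joins carried a D segment. A D run was read in 61.2%, 61.5% and 56.5% of the distinct joins in CBE2mut and in 61.6%, 60.5% and 57.9% in WT, in coding orientation along the read, which is opposite to that of the D in V joins. In the orientation of V joins it was read in 0.995% to 3.38% of them over all 9 libraries of CBE2mut, WT and CBE2inv. Among those with 1 readable D, Ighd1-1 made up 9.02%, 9% and 3.64% of 133, 100 and 110 joins in CBE2mut and 21.5%, 11% and 15.9% of 177, 181 and 226 in WT, again lower in every CBE2mut library (exact permutation p = 0.1). Joins to JH1 in the deletional orientation were 99, 22 and 106 in CBE2mut and 14, 2 and 7 in WT, and 96, 22 and 105 of the CBE2mut joins lay at a single position.

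The interval of 96.2 kb between Ighd1-1 and the nearest V segment, which holds IGCR1, carried fewer junctions in CBE2mut. It held 59, 28 and 80 junctions against 244, 282 and 439 in WT, or 187, 252 and 193 against 307, 486 and 488 per 100000 (exact permutation p = 0.1; log2 -1 in the zone test, limma adjusted p = 0.0760, and 0.0159 with only the 6 libraries in the fit). No CBE2mut library reached a WT library. In CBE2inv, from the same run as CBE2mut, the interval held 92.3, 64.0 and 296 junctions per 100000, also below every WT library. The difference lay mostly 1 to 2 kb beyond Ighd1-1, where CBE2mut held 28, 8 and 3 junctions and WT 129, 159 and 272, or 88.7, 72.0 and 7.24 against 162, 274 and 303 per 100000 (exact permutation p = 0.1). At 3 to 4 kb the groups overlapped, with 20, 10 and 44 against 73, 93 and 135 junctions (exact permutation p = 0.2 per 100000). From 40 to 60 kb CBE2mut held 9, 3 and 28 junctions and WT 11, 0 and 5, of which the D segment at 114784064 had the few given above and none of the 28 in CBE2mut replicate 3. These libraries held 41.0 ± 23.0 against 6.46 ± 6.96 per 100000 (SD, n = 3 each; exact permutation p = 0.1) on very few reads.

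**Figure D5:**
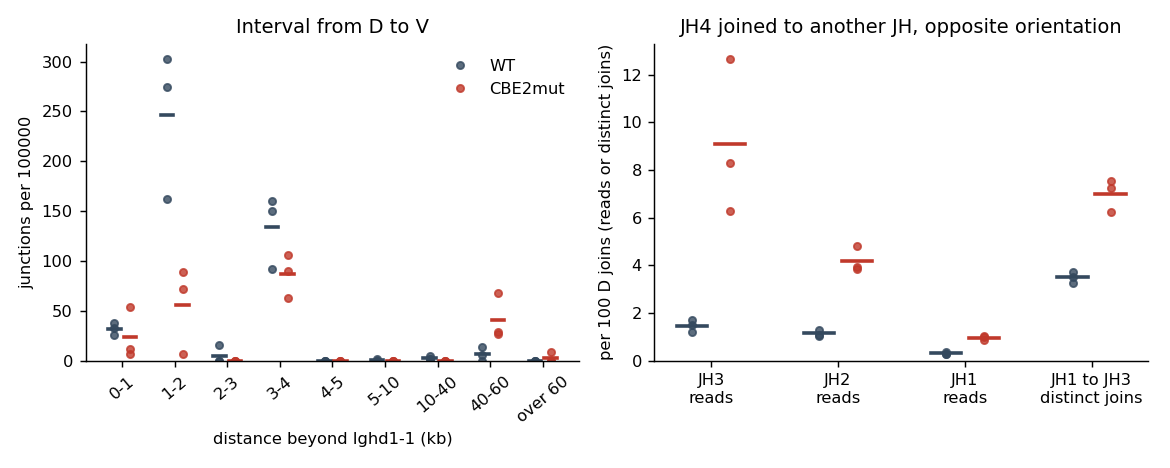
Left, junctions per 100000 in the interval from Ighd1-1 to the V segments by distance beyond Ighd1-1 in kb. Right, JH4 joined to JH3, JH2 or JH1 in the orientation opposite to deletional joining, as reads per 100 D joins and, for all 3 together, as distinct joins per 100 distinct D joins. Points are libraries and bars group means. At 1 to 2 kb all CBE2mut libraries lie below WT, and the distinct JH joins lie at 6.23 to 7.56 against 3.28 to 3.70.

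CBE2inv, with CBE2 inverted and sequenced in the same run as CBE2mut, allowed comparisons that the run does not confound. They share the CBE2mut libraries with the comparison against WT. Within V joins CBE2mut lay above CBE2inv in Ighv5-2 (23.5% ± 3.63 against 13.3% ± 3.34; log2 0.81, limma adjusted p = 9.98e-07), in Ighv5-1 (1.21% ± 0.232 against 0.607% ± 0.311; log2 1.07, limma adjusted p = 0.00946) and in Ighv2-2 (12.4% ± 1.77 against 8.17% ± 0.948; log2 0.59, limma adjusted p = 0.00275). Ighv5-4 missed the threshold (log2 0.43, limma adjusted p = 0.0588). Within D joins Ighd1-1 was at 12.8% ± 0.590 in CBE2mut and 10.2% ± 0.908 in CBE2inv (SD, n = 3 each; log2 0.29, limma adjusted p = 0.0261), and Ighd3 at 114687612 was at 4.16% ± 0.310 and 5.32% ± 0.519 (log2 -0.37, limma adjusted p = 0.122). The shares of Ighd1-1 inside V joins were 11.3% ± 1.03 in CBE2mut and a mean of 11% in CBE2inv.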

How the data were processed

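Per the labels, genomic DNA of sorted pro-B cells was made into HTGTS-V(D)J-seq libraries with the enzyme blocking step left out and was aligned to AJ851868/mm9, a 129 Igh sequence joined with mm9. Bowtie2 is named in the submitters' processing notes, with no version. Per the file headers, the deposited files list 1 read per line with positions and orientations of bait and prey (other values: coordinates, not abundances), so all levels were made by counting here. The duplicate column is 0 throughout although read sequences repeat.

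Segments were found as clusters of at least 50 joins: 147 V (85 named) and 25 D (5 named). Only part of the names came from BLAST 2.17.0 at 97% identity. The V segment closest to D took its name and its pseudogene label from its place in the order. V segments beyond the end of the added Igh sequence were named by position, without a limit on identity. A junction within 100 bp of a segment was assigned to it. Related segments share sequence, so the alignment decided which received a read. A count of 0 allows up to 3 counts, or 7.24 to 27.0 junctions per 100000 in CBE2mut and 3.34 to 5.18 in WT, for counting error only.

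Segments with at least 10 junctions in 3 libraries were fitted with limma 3.58.1 voom (R 4.3.3) over all 18 bone marrow libraries of 6 genotypes, with all junctions, V joins, D joins or V joins with a readable D as library size. Zones were fitted on log2(junctions per 100000 + 1). Adjusted p-values are Benjamini-Hochberg values over all features of a fit, called under 0.05. Single values had exact permutation tests (scipy 1.17.1, 20 relabelings). On simulated data for the comparison relative to all junctions (163 segments), 16 of 20 segments changed by 2-fold, 16 of 20 changed by 3-fold and 0 of 123 unchanged ones were called. The simulation gave every segment the same spread beyond counting error and held no deviating library. These rates therefore need not hold for the real libraries. Alternatives were fits of the 6 libraries alone, a replicate block, limma trend, leaving out libraries, counting repeats once, other scalings, filters and windows.

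Replicate numbers come from the titles. Over V and D segments the deviations of same-numbered libraries correlated at 0.219, 0.102 and 0.107, all over 0.1, and those of other pairs at -0.158 to 0.042. The main fits and the exact permutation tests did not pair the libraries. Pairing by replicate number was run as an alternative, where an exact sign-flip p of 3 pairs cannot go below 0.25. The text names the 10 V segments with joins that lie closest to D, D segments in the fit, JH1 to JH3 and, among other segments called relative to all junctions without overlap of libraries, at most 10 that rose and 10 that fell, by size of change. The members and lists were chosen with earlier results of these data known.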

Additional observations from a re-analysis of the deposited data

How the results depend on the processing

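No called result reversed in any setting run. Segments called relative to all junctions numbered 20, and 9 with only the 6 libraries in the fit, 11 to 33 with any 1 library left out (33 without CBE2mut replicate 1, 11 without CBE2mut replicate 3), 12 with median-of-ratios scaling and 21 with the replicate block. V segments called relative to V joins numbered 55, and 29 with only the 6 libraries, 16 to 58 with 1 library left out (16 without CBE2mut replicate 3, 27 without WT replicate 1) and 15 with median-of-ratios scaling. D segments called within D joins numbered 4, and 2 with median-of-ratios scaling. D sequences called inside V joins numbered 4, and 6 with the replicate block, which changed no other count of calls by over 1.5 times. Zones called numbered 4, and 3 to 8 with 1 library left out (8 without CBE2mut replicate 1, where the middle and farthest parts of the V region and the stretches between D and between V segments passed downward). The V share difference of 11.7 points was 1.48 without the 10 nearest V segments. Counting each distinct junction and read end once was chosen after seeing the data. The 4 nearest V segments and Ighd1-1 passed in every setting run. With same-numbered libraries paired as a replicate block, the differences in the V share (11.7 points), the 10 nearest V (25.4) and Ighd1-1 (-9.26) each had an exact sign-flip p of 0.25, the smallest that 3 pairs allow. The shallowest CBE2mut library held 11105 junctions, and the part of depth in the calls was not tested.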
